A study of Mus musculus with 15 samples.

Results

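The step described here runs from common dendritic cell progenitors (CDPs) to Zbtb46-GFP+ cells in mice without Id2. Its members are the 5 arrays whose titles name Id2 KO: 3 arrays of Zbtb46-GFP+ cells and 2 of CDPs, out of 15 arrays in the series. Replicate 1 of the Zbtb46-GFP+ cells lay on another scale and was left out of every fit and level, so 4 arrays carry the values, 2 for each stage. All cells were sorted from bone marrow. The Id2 KO Zbtb46-GFP+ cells had intermediate c-Kit and came, like the Id2 KO CDPs, from chimeric mice that carried the Id2 knockout and the Zbtb46-GFP reporter. Set beside them were Zbtb46-GFP+ c-Kit-intermediate cells and CDPs from Batf3 KO reporter mice, which are not labelled as chimeric, and the same stages from wild-type (WT) Zbtb46-GFP chimeric mice. Every group therefore carries the reporter. The labels do not give the hosts, donors, ages or sexes of the mice, whether the knockouts were confined to blood cells, or whether replicates came from separate mice, so the p-values measure the spread between arrays, which may be technical.

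CDPs are bone marrow progenitors that give rise to classical dendritic cells (cDCs), which present antigen to T cells, and to plasmacytoid dendritic cells (pDCs), which secrete type I interferon. Zbtb46 is a zinc finger factor of the cDC lineage, and its reporter marks progenitors that have entered it. Id2 is a helix-loop-helix protein without a DNA-binding region. It pairs with E proteins such as Tcf4 (E2-2) and keeps them off DNA. The cDC1 subset, which cross-presents antigen to CD8 T cells, depends on Id2, Irf8, Batf3 and Nfil3, whereas Tcf4 drives pDC identity and Irf4 is used by the cDC2 subset.

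Values are log2 of the deposited probe set signal, each gene is represented by the 1 probe set with the highest mean, and the 2 arrays of a group are given in replicate order (2 and 3 for Zbtb46-GFP+ cells, 1 and 2 for CDPs). A step is the mean of the Zbtb46-GFP+ arrays minus the mean of the CDP arrays of 1 genotype, with the standard error of the fit. A call is a Benjamini-Hochberg adjusted p under 0.05 over 19938 genes (limma). The median signals of the 4 Id2 KO arrays were 102.6 to 109.7, within the 100.8 to 112.1 of all 12 arrays used, and that of the array left out was 24.1. That array held the same value as the other left-out arrays for 17130 probe sets (59.4%, WT) and 17411 (60.3%, Batf3 KO), whereas any other pair of arrays shared at most 22. The labels give no reason. Where their values are the same, the left-out arrays show no difference between genotypes. A fit that adds them with a term for their scale, given below for some results, can therefore shrink differences between steps. A call lost in that fit cannot decide whether the difference holds. By the 75th percentile of their signal the 12 arrays used also fell into 2 sets (327.2 to 355.2 and 369.4 to 409.9), with 1 array of each group in each and every CDP replicate 1 in the higher one. These sets were drawn from the data and no label names them. They were told apart by a difference within groups that the block then removes, which can lower the spread by that choice. Fits with the set as a block are therefore given only beside the reported ones, and their calls are not independent support. The arrays of a genotype also kept one sex-linked pattern in both stages: Xist, the RNA of the silenced X chromosome, read 5.49 and 5.66 in Id2 KO Zbtb46-GFP+ cells, against 5.06 and 5.65 in Id2 KO CDPs, and 11.93 and 12.27 in WT Zbtb46-GFP+ cells, against 12.41 and 12.42 in WT CDPs. Kdm5d, on the Y chromosome, read 8.82 and 8.39 in Id2 KO Zbtb46-GFP+ cells, against 8.88 and 8.72 in Id2 KO CDPs, and 5.54 and 5.78 in WT Zbtb46-GFP+ cells, against 5.37 and 6.0004 in WT CDPs. Levels of Id2 KO and WT cells therefore differ in this pattern as well as in Id2, and the 2 cannot be told apart. Each step compares 2 stages with the same pattern, but the difference between the Id2 KO and WT steps sets 2 patterns against each other. A stage change that depends on the pattern cannot be told apart there from one that depends on Id2. The pattern of the Batf3 KO arrays is not given here.

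The targeted gene was checked first. Id2 read 8.39 and 8.82 in Id2 KO Zbtb46-GFP+ cells, against 7.08 and 5.96 in Id2 KO CDPs. In WT cells it read 11.999 and 11.47 in WT Zbtb46-GFP+ cells, against 7.68 and 7.40 in WT CDPs. The Id2 KO Zbtb46-GFP+ arrays were thus the lower of the Zbtb46-GFP+ groups by a wide margin, but Id2 signal still rose along the step, by 2.09 ± 0.32 (adjusted p = 0.00259), against 4.19 ± 0.32 (adjusted p = 1.49e-05) in WT. The difference between the steps was -2.10 ± 0.45 (adjusted p = 0.106) and did not pass, but it was called with the array set as a block (adjusted p = 0.0314) or without Id2 KO CDP replicate 2 (0.0119). Whether the probes of this set lie in the deleted part of the gene is not given in the sources used here. Zbtb46 itself, the gene whose reporter defined the sort, read 5.95 and 6.08 in Id2 KO Zbtb46-GFP+ cells, against 5.77 and 5.87 in Id2 KO CDPs. Its Id2 KO step was 0.20 ± 0.14 (adjusted p = 0.656) and did not pass, while it rose in WT by 1.08 ± 0.14 (adjusted p = 0.000636), with 7.18 and 6.99 in WT Zbtb46-GFP+ cells, against 6.07 and 5.94 in WT CDPs. The difference of the Zbtb46 steps was -0.88 ± 0.20 (adjusted p = 0.148), which also did not pass, except with the array set as a block (adjusted p = 0.0177). Kit, the receptor of stem cell factor, on which the sort was gated too, rose by 0.78 ± 0.15 (adjusted p = 0.0104) in Id2 KO and 1.498 ± 0.15 (adjusted p = 0.000102) in WT, and its Id2 KO call was lost when Id2 KO CDP replicate 1 or either Id2 KO Zbtb46-GFP+ array was left out.

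Without Id2, 11 of 12 MHC class II genes, 14 of 23 cDC2 genes and 14 of 23 pDC genes rose along the step, 13 of 23 stem and progenitor genes fell, and 15 of 25 cDC1 genes were not called. The lists were chosen with earlier results of these data known. Only 1 of the pDC genes had a called difference from the WT step. In all, 1359 of 19938 genes (6.82%) were called, 765 higher (3.84%) and 594 lower (2.98%) in Id2 KO Zbtb46-GFP+ cells. The WT step called 940 genes higher (4.71%) and 1272 lower (6.38%). Most of the WT step kept its direction: 906 of the 940 genes that rose in WT (96.4%) and 1213 of the 1272 that fell (95.4%) had the same sign in Id2 KO. Fewer were called. Of the genes that rose in WT, 507 (53.9%) were called higher in Id2 KO, 431 were not called and 2 were called lower. Of those that fell, 485 (38.1%) were called lower, 785 were not called and 2 were called higher. Read from the other side, 507 of the 765 genes that rose in Id2 KO (66.3%) also rose in WT, and 485 of the 594 that fell (81.6%) also fell in WT. These shares depend on single arrays. Without Id2 KO CDP replicate 1 the share of WT-higher genes called higher was 42% and that of WT-lower genes 15.2%. Leaving out Id2 KO CDP replicate 2 gave 35.2% and 35.9%, Id2 KO Zbtb46-GFP+ replicate 2 gave 27% and 17.5%, and replicate 3 gave 36.8% and 19.1%. Leaving out a WT array changed which genes were called in WT: the shares were 62.5% and 65.3% without WT CDP replicate 1, 63.7% and 38.1% without WT CDP replicate 2, 56% and 49.5% without WT Zbtb46-GFP+ replicate 2, and 66.9% and 45.8% without replicate 3. Without WT CDP replicate 1 or Id2 KO CDP replicate 2 the share of lower genes was therefore the larger.

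**Figure D1:**
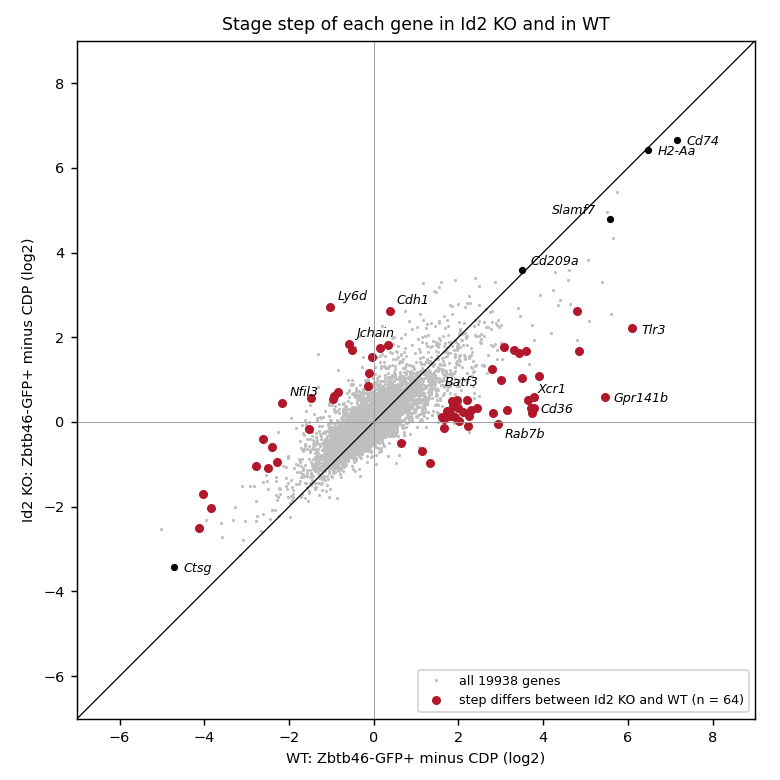
Stage step without Id2 (vertical axis) against the stage step in WT (horizontal axis), both Zbtb46-GFP+ minus CDP on the log2 scale. Each grey point is 1 of 19938 genes, the line marks equal steps, large red points are the 64 genes whose steps differed (41 below the line, 23 above it), and small black points are 5 named genes, of which Cd74 and H2-Aa lie at the upper end.

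The plot of the Id2 KO step against the WT step shows the kept part as a cloud along the diagonal. Across genes, which are not independent of each other, the correlation of the Id2 KO step was 0.790 with the WT step and 0.826 with the Batf3 KO step. No array is shared between these steps, but array processing and scale are. The share of WT calls that were also called in Id2 KO rose with the size of the WT step. A larger step passes a fixed threshold more easily, so these shares do not show that large steps were better kept. Among WT-higher genes with a step of up to 1, 150 of 414 (36.2%) were called higher in Id2 KO, against 237 of 373 (63.5%) between 1 and 2 and 120 of 153 (78.4%) above 2. For WT-lower genes the same counts were 234 of 855 (27.4%), 202 of 362 (55.8%) and 49 of 55 (89.1%). The median steps of the WT-higher groups were 0.52, 0.97 and 1.81 in Id2 KO, against 0.74, 1.35 and 2.53 in WT. Those of the WT-lower groups were -0.44, -0.82 and -1.59, against -0.72, -1.22 and -2.52. A smaller step in Id2 KO was called for 1, 13 and 27 WT-higher genes and for 3, 2 and 9 WT-lower genes, in the same order.

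Genes called by their own WT step have WT steps that are raised by that choice. The size of the steps was therefore read in genes chosen by the Batf3 KO step, whose means use no Id2 KO or WT array. Its calls do share each gene's estimate of spread with those arrays, so the choice is not fully independent of them. Of its 771 higher genes (3.87% of those tested), 498 (64.6%) were called higher in Id2 KO and 627 (81.3%) in WT. Of its 661 lower genes (3.32%), 362 (54.8%) were called lower in Id2 KO and 589 (89.1%) in WT. Without Id2 KO Zbtb46-GFP+ replicate 2 the Id2 KO shares were 33.9% of the higher and 32.3% of the lower genes, without replicate 3 they were 45.7% and 36%, without Id2 KO CDP replicate 1 50.1% and 25.3%, and without CDP replicate 2 42% and 53.4%. The median step of the higher genes was 0.88 in Id2 KO and 1.09 in WT, and that of the lower genes was -0.71 in Id2 KO and -0.97 in WT. Taken over single pairs of 1 Zbtb46-GFP+ and 1 CDP array, the median of the higher genes ran from 0.77 to 0.98 in Id2 KO and from 0.85 to 1.37 in WT, which overlap. With each array centred on its 75th percentile they ran from 0.79 to 0.98 and from 1.12 to 1.32, which do not. The lower genes gave the opposite: -0.61 to -0.81 in Id2 KO and -0.85 to -1.10 in WT as deposited, without overlap, and -0.60 to -0.79 against -0.72 to -0.97 after centring, with overlap. The Id2 KO step was thus the smaller by its medians in both directions, and whether single array pairs separate the genotypes depends on the scaling.

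The 4 genes with the largest rise in the Id2 KO step were genes of MHC class II, the molecules that present peptides to CD4 T cells. Of 12 measured genes of the class II pathway, 11 rose in Id2 KO and 12 in WT, none fell, and no difference between the steps was called. The median step was 2.29 in Id2 KO and 2.73 in WT, against a median over all genes of 0.0074 in Id2 KO and 0.0332 in WT. Cd74, the invariant chain that guides class II molecules, read 12.98 and 12.61 in Id2 KO Zbtb46-GFP+ cells, against 6.32 and 5.94 in Id2 KO CDPs. Its step was 6.67 ± 0.20 (adjusted p = 2.57e-08), against 7.17 ± 0.20 (adjusted p = 7.28e-09) in WT. H2-Aa, the alpha chain of I-A, read 13.29 and 13.19 in Id2 KO Zbtb46-GFP+ cells, against 7.25 and 6.37 in Id2 KO CDPs, a step of 6.43 ± 0.30 (adjusted p = 1.16e-06). H2-Ab1, its beta chain, rose by 4.95 ± 0.17 and H2-Eb1, the beta chain of I-E, by 5.42 ± 0.16. Every Id2 KO Zbtb46-GFP+ array lay above both Id2 KO CDP arrays for these 4 genes. Ciita, the coactivator that switches on class II genes, read 9.91 and 9.42 in Id2 KO Zbtb46-GFP+ cells, against 6.02 and 6.16 in Id2 KO CDPs, and 10.47 and 10.81 in WT Zbtb46-GFP+ cells, against 5.94 and 6.12 in WT CDPs. It rose by 3.58 ± 0.18 (adjusted p = 1.7e-06) in Id2 KO and 4.60 ± 0.18 (adjusted p = 8.69e-08) in WT, and the difference of -1.03 ± 0.25 (adjusted p = 0.186) did not pass, although it was called after quantile normalization (adjusted p = 0.0427) or with the array set as a block (0.0454). The genes of peptide editing H2-DMa, H2-Oa and H2-Ob rose by 0.98, 2.31 and 2.28. H2-Eb2, a further beta chain, had a step of 0.40 in Id2 KO that did not pass. The summed signal of the 12 genes was 58288.5 and 52158.9 in Id2 KO Zbtb46-GFP+ cells, against 9807.9 and 8207.7 in Id2 KO CDPs. In sorted bulk cells, fewer cells of a type and less RNA per cell cannot be told apart.

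The promoters of the class II pathway genes were searched on both strands for the letters TGATTGG, the core of a Y-box as found in class II promoters. Of the 9 class II pathway genes with a promoter among the RefSeq sequences (250 bases before to 50 after the start, GRCm38.p6), 5 held the letters (55.6%), against 1417 of 15614 measured genes (9.08%) and 2217 of 27025 promoters in all (8.2%). The match in the 2 of them with the largest steps is shown in capitals, in windows at chr17:34287807-34287933, minus strand, and chr17:34305746-34305872, plus strand.
H2-Aa: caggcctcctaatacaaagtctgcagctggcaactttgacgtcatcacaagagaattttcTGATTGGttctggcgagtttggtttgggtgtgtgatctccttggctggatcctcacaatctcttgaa
H2-Eb1: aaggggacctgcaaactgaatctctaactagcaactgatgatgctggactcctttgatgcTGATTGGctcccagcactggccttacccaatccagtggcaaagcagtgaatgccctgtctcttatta
In H2-Aa the match begins 50 bases before the start, and in H2-Eb1 61 bases before it. H2-Eb2, whose Id2 KO step was not called, also held the letters, whereas H2-DMa, Ctss, Ifi30 and Marchf1, which rose, did not. A match describes the letters and is not a measured binding site.

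**Figure D2:**
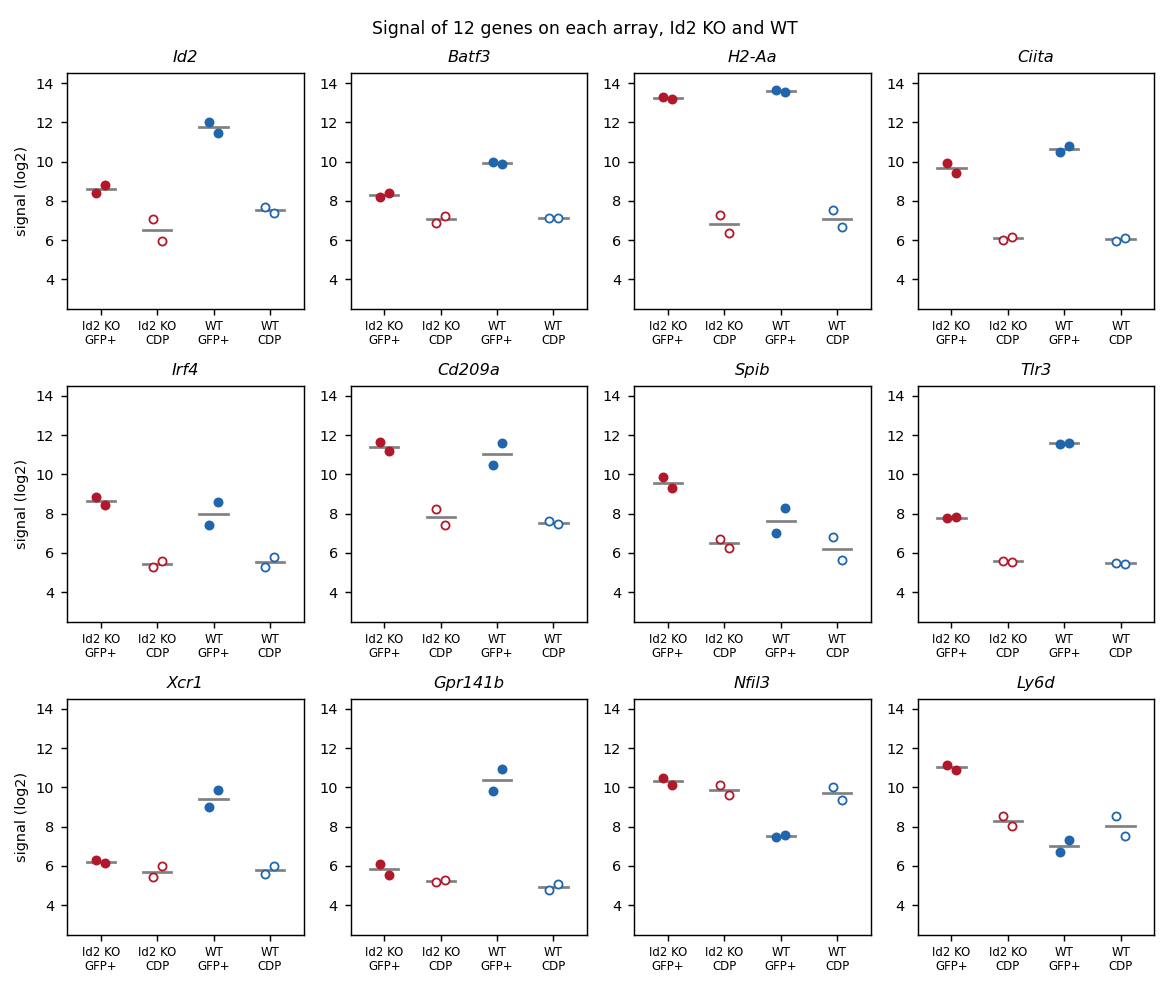
Signal (log2) of 12 genes on each array used, with Id2 KO Zbtb46-GFP+ (GFP+) left of Id2 KO CDP and the WT groups right of them. Each point is 1 array and each grey line the mean of 2. H2-Aa lies at 13.29 and 13.19 on the Id2 KO Zbtb46-GFP+ arrays, whereas Xcr1 lies at 6.29 and 6.12 there, against 8.99 and 9.86 on WT Zbtb46-GFP+ arrays.

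Of 23 measured cDC2 genes, 14 rose and 2 fell in Id2 KO and 15 rose and 2 fell in WT (list medians 1.14 in Id2 KO and 0.82 in WT). No difference between the steps was called, against 2 higher and 1 lower with the array set as a block. Irf4, the factor used by cDC2s, read 8.83 and 8.46 in Id2 KO Zbtb46-GFP+ cells, against 5.28 and 5.58 in Id2 KO CDPs, a step of 3.21 ± 0.33 (adjusted p = 0.000277). Cd209a, a C-type lectin of cDC2s, read 11.65 and 11.18 in Id2 KO Zbtb46-GFP+ cells, against 8.26 and 7.40 in Id2 KO CDPs. Its step was 3.58 ± 0.34 (adjusted p = 0.000155), against 3.50 ± 0.34 (adjusted p = 6.94e-05) in WT, so the rise was of nearly the same size with and without Id2. Itgam, the integrin CD11b, rose by 1.90 ± 0.25 (adjusted p = 0.00115) in Id2 KO and 1.14 ± 0.25 (adjusted p = 0.0133) in WT. Clec4b1, a further lectin gene, rose by 2.80 ± 0.48 (adjusted p = 0.00505) in Id2 KO and 4.64 ± 0.48 (adjusted p = 0.000109) in WT, and the difference was called without Id2 KO CDP replicate 2 (adjusted p = 0.0413). Its Id2 KO CDP arrays were far apart, at 6.51 and 4.68, and below both Zbtb46-GFP+ arrays at 8.76 and 8.02. Cd7, a receptor of the immunoglobulin superfamily, read 12.77 and 12.80 in Id2 KO Zbtb46-GFP+ cells, against 9.87 and 9.11 in Id2 KO CDPs. It rose by 3.30 ± 0.48 (adjusted p = 0.00192) in Id2 KO, whereas its WT step of 1.59 ± 0.48 (adjusted p = 0.0585) did not pass and the difference was not called either (1.70 ± 0.68 (adjusted p = 0.879)). The members that fell were Csf1r and Clec12a. Without Id2 KO Zbtb46-GFP+ replicate 2, 8 cDC2 genes instead of 14 rose in Id2 KO, and Clec4b1, Klf4, Ccr2 and Relb lost their calls (adjusted p = 0.0653, 0.0591, 0.212 and 0.187 at most with an array left out). Ccr2 also lost its call without Id2 KO CDP replicate 2 or Zbtb46-GFP+ replicate 3, and Relb without either Id2 KO CDP array. The WT count fell to 9 without WT CDP replicate 2 and to 8 without WT Zbtb46-GFP+ replicate 3. The 2 WT Zbtb46-GFP+ arrays differed from each other in several cDC2 genes, such as Clec10a at 7.38 and 9.60 on replicates 2 and 3.

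The other genes at the top of the Id2 KO step were kept from WT too. Slamf7, a self-ligand receptor of the SLAM family, read 10.79 and 10.62 in Id2 KO Zbtb46-GFP+ cells, against 6.01 and 5.82 in Id2 KO CDPs. It rose by 4.79 ± 0.15 (adjusted p = 2.57e-08) in Id2 KO and 5.57 ± 0.15 (adjusted p = 7.2e-09) in WT. Plbd1, a lysosomal phospholipase B-like protein, rose by 4.35 ± 0.40, and Samd9l, an interferon-inducible inhibitor of growth, by 3.82 ± 0.40. The purinergic receptor-like gene P2ry10 rose by 3.54, the Src-family kinase Fgr by 3.41, the lysosomal transporter Slc46a3 by 3.36, the collagen receptor kinase Ddr1 by 3.35 and the tryptophan-degrading enzyme Kynu by 3.30. All of these were called in WT as well, with steps between 1.92 (Ddr1) and 5.66 (Plbd1). None of the 8 lost its Id2 KO call when any single Id2 KO array was left out. No difference from WT was called for them, but with the array set as a block those of Slamf7 (adjusted p = 0.0126) and Slc46a3 (0.0419) were called, and with the replicate number as a block that of Plbd1 (0.0187).

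Among the genes with the largest falls was Cd34. Cd34, the sialomucin that marks stem and progenitor cells, read 8.76 and 9.06 in Id2 KO Zbtb46-GFP+ cells, against 11.06 and 11.34 in Id2 KO CDPs. It fell by 2.29 ± 0.15 (adjusted p = 1.32e-05) in Id2 KO and 2.44 ± 0.15 (adjusted p = 3.18e-06) in WT on the log2 scale. Cdk6, a cyclin-dependent kinase of dividing progenitors, had a step of -2.17 ± 0.16 (adjusted p = 3.57e-05). The adhesion receptor genes Adgrl4, Adgrg7 and Adgrg3 had steps of -2.72, -2.58 and -2.39, and Cd69, a lectin of early activation, had -3.14 in Id2 KO and -3.15 in WT. Drc7, a gene of cilia and sperm tails, Il12a, the p35 chain of interleukin 12, and Npl, an enzyme of sialic acid breakdown, had steps of -2.80, -2.33 and -2.22. Cst7, Rab44 and Tfec, which code for a cystatin, a large Rab GTPase and a factor related to Mitf, had -2.34, -2.30 and -2.25. Of these 12 genes, none lost its call in Id2 KO when any single Id2 KO array was left out.

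Of 23 stem and progenitor genes, 13 fell and 1 rose in Id2 KO, 16 fell and 1 rose in WT (list medians -1.01 in Id2 KO and -1.35 in WT), and the member that rose was Kit in both. Cd93, Igfbp4 and Myb fell less without Id2. Cd93, a C-type lectin-like receptor of progenitors, read 9.62 and 9.92 in Id2 KO Zbtb46-GFP+ cells, against 11.39 and 11.55 in Id2 KO CDPs, and 7.39 and 7.81 in WT Zbtb46-GFP+ cells, against 11.63 and 11.62 in WT CDPs. The steps were -1.70 ± 0.19 in Id2 KO and -4.03 ± 0.19 in WT, a difference of 2.33 ± 0.27 (adjusted p = 0.0052). Igfbp4, which binds insulin-like growth factors, read 8.78 and 8.71 in Id2 KO Zbtb46-GFP+ cells, against 10.78 and 10.77 in Id2 KO CDPs, and 6.995 and 6.97 in WT Zbtb46-GFP+ cells, against 10.83 and 10.81 in WT CDPs, a difference of 1.80 ± 0.17 (adjusted p = 0.00154) that was lost in the fit on all 15 arrays with a term for the left-out scale (adjusted p = 0.392), in which Cd93 kept its call and Myb (0.122) did not. For both genes the CDP arrays of the 2 genotypes lay close together and the Id2 KO Zbtb46-GFP+ arrays stood between them and the WT Zbtb46-GFP+ arrays. Myb, a factor of progenitor growth, had a difference of 1.33 ± 0.21 (adjusted p = 0.0226), which was lost when a single array was left out (WT CDP replicate 1 or 2, WT Zbtb46-GFP+ replicate 2, Id2 KO CDP replicate 1, or either Id2 KO Zbtb46-GFP+ array).

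**Figure D3:**
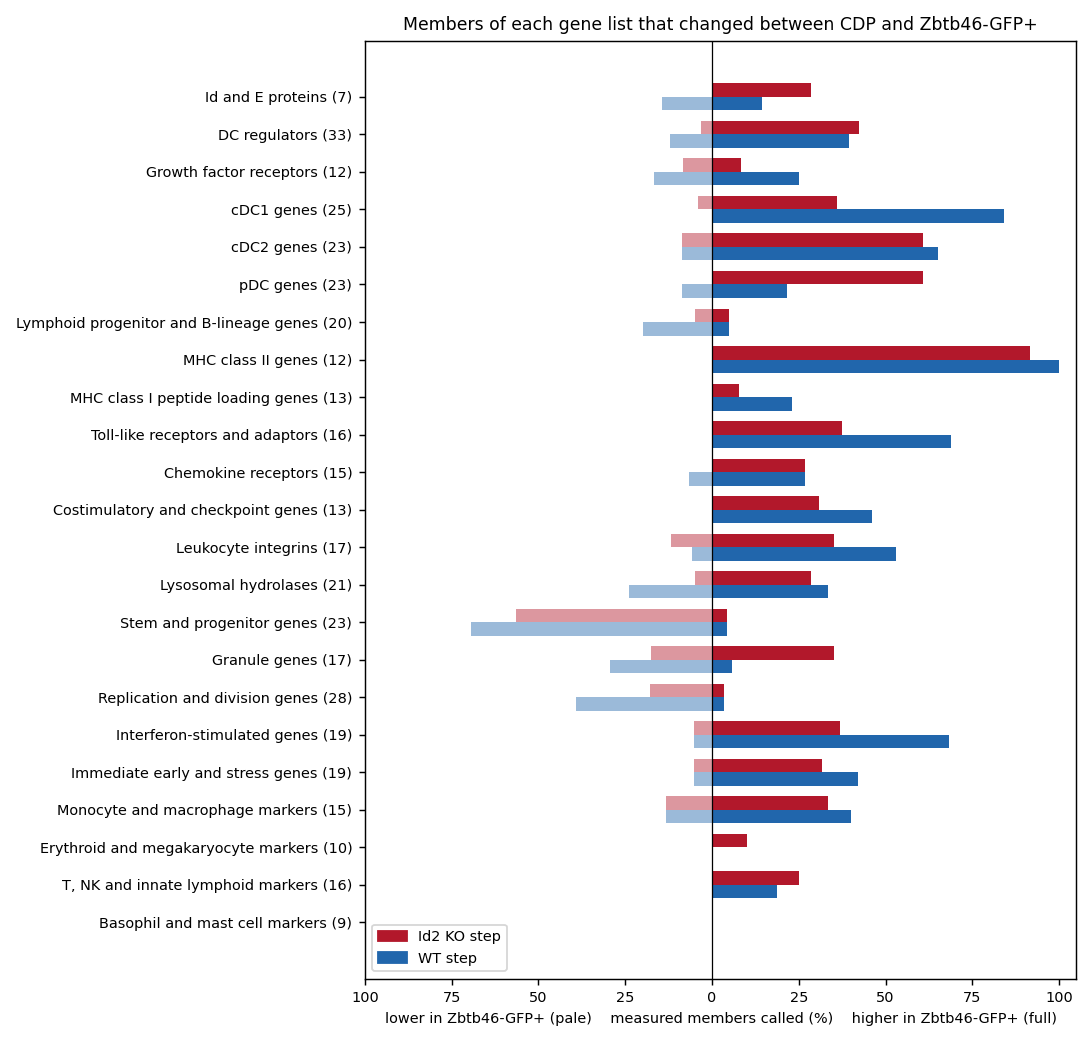
Percentage of the measured members of each gene list (number in brackets) called higher (right, full colour) or lower (left, pale) along the Id2 KO step (upper bar) and the WT step (lower bar). Of the cDC1 genes 9 of 25 were called higher in Id2 KO and 21 in WT, and of the pDC genes 14 of 23 in Id2 KO and 5 in WT.

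Of all the lists, the cDC1 genes held the most called differences between the Id2 KO and WT steps. Of 25 measured, 9 rose and 1 fell in Id2 KO and 21 rose in WT, and 14 had a step that was called lower in Id2 KO than in WT, against 41 of 19938 genes (0.206%) over the array. The list medians were 0.60 in Id2 KO and 2.79 in WT. Part of this list was written with results of these arrays known and is no independent evidence of its direction. The summed signal of the list was 26022.4 and 26870.6 in Id2 KO Zbtb46-GFP+ cells, against 19066.9 and 18503.5 in Id2 KO CDPs. In WT it was 55778.5 and 61008.4 in Zbtb46-GFP+ cells, against 19932.1 and 18266.8 in CDPs. Without Id2 KO Zbtb46-GFP+ replicate 2, or without replicate 3, 9 cDC1 genes rather than 14 had a called difference, and the fit on all 15 arrays that adds a term for the left-out scale gave 10.

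Among cDC1 genes that did not rise, Xcr1, the chemokine receptor used to identify cDC1s, read 6.29 and 6.12 in Id2 KO Zbtb46-GFP+ cells, against 5.42 and 5.98 in Id2 KO CDPs, and 8.99 and 9.86 in WT Zbtb46-GFP+ cells, against 5.56 and 5.99 in WT CDPs. Its step was 0.51 ± 0.30 (adjusted p = 0.49) in Id2 KO and 3.65 ± 0.30 (adjusted p = 2.38e-05) in WT, a difference of -3.14 ± 0.42 (adjusted p = 0.0111). Clec9a, the receptor for dead cells on cDC1s, read 9.80 and 9.79 in Id2 KO Zbtb46-GFP+ cells, against 9.48 and 9.58 in Id2 KO CDPs, and 11.37 and 11.66 in WT Zbtb46-GFP+ cells, against 9.90 and 9.67 in WT CDPs, a difference of -1.47 ± 0.20 (adjusted p = 0.0111). The Id2 KO arrays of both stages lay together for these genes, and only the WT Zbtb46-GFP+ arrays stood apart. Gcsam, Snx22, Rasgrp3 and Cd36, which code for a signalling adaptor, a sorting nexin, a Ras exchange factor and a scavenger receptor, had Id2 KO steps of 0.22, 0.34, 0.34 and 0.60, none called, against WT steps of 3.73, 3.78, 3.72 and 3.78. Gpr141b, an orphan receptor gene, had the largest difference, -4.85 ± 0.43 (adjusted p = 0.00118), with 6.11 and 5.53 in Id2 KO Zbtb46-GFP+ cells, against 5.15 and 5.29 in Id2 KO CDPs, and 9.81 and 10.94 in WT Zbtb46-GFP+ cells, against 4.76 and 5.09 in WT CDPs. Rab7b, a GTPase of late endosomes, had a step of -0.043 in Id2 KO and 2.92 in WT, and the difference was -2.96 ± 0.30 (adjusted p = 0.00167).

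Other cDC1 genes kept part of their rise. Tlr3, the receptor for double-stranded RNA, read 7.77 and 7.82 in Id2 KO Zbtb46-GFP+ cells, against 5.60 and 5.56 in Id2 KO CDPs, and 11.56 and 11.59 in WT Zbtb46-GFP+ cells, against 5.50 and 5.44 in WT CDPs. It rose by 2.21 ± 0.14 (adjusted p = 9.4e-06) in Id2 KO and 6.11 ± 0.14 (adjusted p = 2.02e-09) in WT, and the difference of -3.90 ± 0.19 (adjusted p = 1.06e-05) had the smallest adjusted p of all genes. Batf3, the AP-1 factor of cDC1s, read 8.21 and 8.38 in Id2 KO Zbtb46-GFP+ cells, against 6.87 and 7.24 in Id2 KO CDPs, and 9.99 and 9.85 in WT Zbtb46-GFP+ cells, against 7.12 and 7.15 in WT CDPs. It rose by 1.24 ± 0.18 (adjusted p = 0.00191) in Id2 KO and 2.79 ± 0.18 (adjusted p = 4.75e-06) in WT, a difference of -1.55 ± 0.26 (adjusted p = 0.0318). Naaa, a lysosomal amidase, rose by 1.67 ± 0.38 (adjusted p = 0.0235) in Id2 KO and 4.84 ± 0.38 (adjusted p = 1.82e-05) in WT. Ifi205, an interferon-inducible p200 gene, rose by 3.29 ± 0.27 (adjusted p = 5.71e-05) in Id2 KO and 5.40 ± 0.27 (adjusted p = 6.54e-07) in WT, and Septin3, a filament-forming GTPase, by 1.78 ± 0.26 (adjusted p = 0.00181) and 2.80 ± 0.26 (adjusted p = 5.01e-05) in the same order, and neither difference was called. That of Ifi205, -2.10 ± 0.38 (adjusted p = 0.0508), lay just short and was called in 8 of the other fits, for example with the term for the left-out scale (0.0334) or with the replicate number (0.0136) or array set (0.00951) as a block. Irf8, the factor that cDC1s require, was called in neither step: it read 12.99 and 12.997 in Id2 KO Zbtb46-GFP+ cells, against 12.80 and 12.82 in Id2 KO CDPs, and 12.76 and 12.997 in WT Zbtb46-GFP+ cells, against 12.93 and 12.62 in WT CDPs. Gatm, an enzyme of creatine synthesis, went the opposite way, with 8.39 and 8.45 in Id2 KO Zbtb46-GFP+ cells, against 9.26 and 8.97 in Id2 KO CDPs, and 10.47 and 10.41 in WT Zbtb46-GFP+ cells, against 9.27 and 9.32 in WT CDPs. It fell by 0.69 ± 0.16 (adjusted p = 0.0271) in Id2 KO and rose by 1.15 ± 0.16 (adjusted p = 0.00096) in WT. The differences of Gpr141b, Tlr3, Gcsam, Snx22, Rasgrp3, Cd36, Rab7b and Ppt1 kept their calls with each array left out, but Snx22 (adjusted p = 0.907) and Rasgrp3 (0.405) lost theirs in the fit with the term, as did Xcr1 (0.111), Batf3 (0.902) and Gatm (0.0907). Gatm lost its call without Id2 KO Zbtb46-GFP+ replicate 2 (adjusted p = 0.0511), Clec9a without either Id2 KO Zbtb46-GFP+ array (at most 0.0778), and Xcr1 without either of these or WT CDP replicate 1 (at most 0.0778). Batf3 lost its difference without any array but Id2 KO CDP replicate 1 (at most 0.168), and Naaa without any but WT CDP replicate 1 or Id2 KO CDP replicate 2 (at most 0.173). The Naaa call of the Id2 KO step was lost without Id2 KO CDP replicate 2 or either Id2 KO Zbtb46-GFP+ array.

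**Figure D4:**
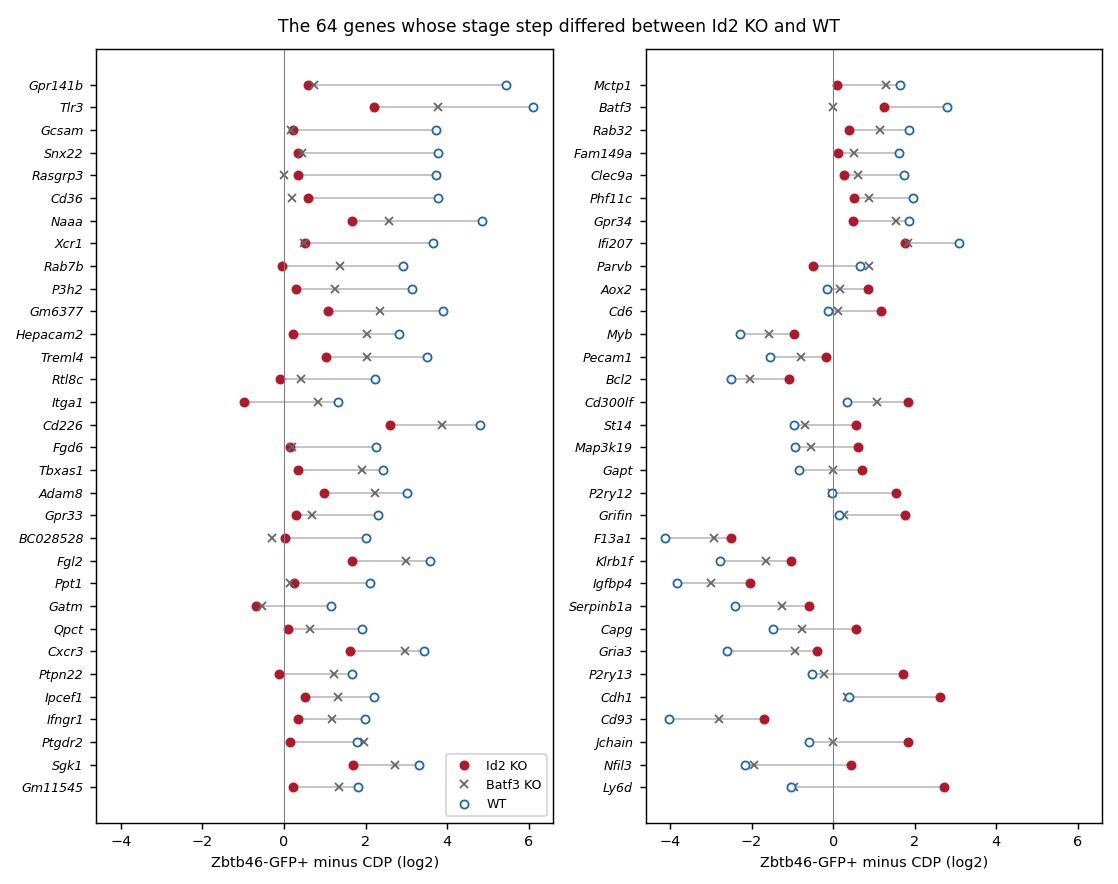
Steps (Zbtb46-GFP+ minus CDP, log2) of the 64 genes with a called difference between the Id2 KO and WT steps. Filled circles are Id2 KO, crosses Batf3 KO and open circles WT, and a grey line joins Id2 KO to WT. Gpr141b and Tlr3 have the widest gaps with Id2 KO below WT, and Ly6d the widest with Id2 KO above WT.

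Over all genes, 64 had a called difference between the Id2 KO and WT steps (0.321%), 23 higher (0.115%) and 41 lower (0.206%) in Id2 KO. Most concerned genes that rose in WT: 30 were called higher in WT alone, 9 rose in both but less in Id2 KO, and 2 rose in WT and fell in Id2 KO. Of the others, 7 fell in WT alone, 6 fell in both but less in Id2 KO, 1 fell in WT and rose in Id2 KO, and 9 rose in Id2 KO alone. With the array set as a block 373 genes had a called difference, and with the replicate number as one, 120. Only 17 of the 64 kept the call with every single array left out, 16 kept it in the 15-array fit with a term, and 8 did both. The arrays which that fit adds share most values across genotypes, which can shrink these differences. Outside the cDC1 list, Cd226, an adhesion receptor, passed both checks and rose by 2.61 in Id2 KO and 4.80 in WT. The next 5 genes kept their calls with each array left out but lost them in the fit with the term (adjusted p from 0.053 for Itga1 to 0.553 for P3h2). Itga1, the collagen-binding alpha 1 integrin, read 6.87 and 7.05 in Id2 KO Zbtb46-GFP+ cells, against 8.17 and 7.70 in Id2 KO CDPs, and 8.76 and 8.99 in WT Zbtb46-GFP+ cells, against 7.59 and 7.53 in WT CDPs. Itga1 fell by 0.98 ± 0.16 (adjusted p = 0.00403) in Id2 KO and rose by 1.32 ± 0.16 (adjusted p = 0.000366) in WT. That fall was not called in the fit with the term (adjusted p = 0.0806). P3h2, a collagen prolyl hydroxylase, Tbxas1, the thromboxane synthase, and Ptpn22, a phosphatase of immune receptor signalling, had Id2 KO steps of 0.29, 0.34 and -0.13, none called, against 3.15, 2.43 and 1.67 in WT. Klrb1f, a receptor of the natural killer gene complex, fell by 1.03 in Id2 KO and 2.77 in WT. Hepacam2 and Gm6377 also rose in WT and were not called in Id2 KO, with differences of -2.60 and -2.81, and both were lost when any array but a WT Zbtb46-GFP+ array was left out. The Id2 KO step of Gm6377 was called after centring on the 75th percentile or with the array set as a block.

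Many pDC genes rose without Id2. Of 23 measured, 14 rose and none fell in Id2 KO, whereas 5 rose and 2 fell in WT (list medians 1.15 in Id2 KO and -0.31 in WT). This list too was chosen with earlier results of these data known, so its counts are no independent evidence. With a single Id2 KO array left out the Id2 KO count was 8 (without CDP replicate 1), 9 (CDP replicate 2), 7 (Zbtb46-GFP+ replicate 2) or 9 (Zbtb46-GFP+ replicate 3). The difference between the steps was called for 1 member. It was called for 14, all higher in Id2 KO, with the array set as a block, where 17 rose in Id2 KO, and 7 rose and 8 fell in WT. Because that block was drawn from these arrays, its calls are not independent support. The 1 member was Ly6d, a surface protein of lymphoid and pDC progenitors, which read 11.16 and 10.88 in Id2 KO Zbtb46-GFP+ cells, against 8.55 and 8.05 in Id2 KO CDPs, and 6.68 and 7.30 in WT Zbtb46-GFP+ cells, against 8.53 and 7.51 in WT CDPs. It rose by 2.72 ± 0.40 (adjusted p = 0.00191) in Id2 KO, its WT step was -1.03 ± 0.40 (adjusted p = 0.141), and the difference was 3.74 ± 0.56 (adjusted p = 0.0197), which was lost in the fit with the term for the left-out scale (adjusted p = 1). All 4 CDP arrays stood between the Id2 KO Zbtb46-GFP+ arrays above and the WT Zbtb46-GFP+ arrays below. Siglech, a sialic acid-binding receptor of pDCs, read 11.86 and 11.78 in Id2 KO Zbtb46-GFP+ cells, against 9.90 and 9.70 in Id2 KO CDPs, and 8.19 and 9.32 in WT Zbtb46-GFP+ cells, against 9.69 and 8.51 in WT CDPs. Its step was 2.02 ± 0.46 (adjusted p = 0.024) in Id2 KO and -0.34 ± 0.46 (adjusted p = 0.733) in WT, and the difference of 2.37 ± 0.66 (adjusted p = 0.291) did not pass, except with the array set as a block (0.00664). Spib, an Ets factor of pDCs, rose by 3.08 ± 0.51 (adjusted p = 0.00424) in Id2 KO and its WT step of 1.42 ± 0.51 (adjusted p = 0.115) did not pass, with WT Zbtb46-GFP+ arrays at 7.02 and 8.28. The difference of 1.66 ± 0.72 (adjusted p = 0.975) was called only with the array set as a block (0.00953). Ccr9, a gut-homing chemokine receptor of pDCs, and Irf7, the factor that induces type I interferon, rose in both genotypes, by 2.98 and 2.37 in Id2 KO and 2.25 and 2.79 in WT. Klra17, of the Ly49 receptor family, whose members are close in sequence and may share probe signal, rose by 2.74 in Id2 KO and 1.84 in WT. The summed signal of the pDC list was 44631.7 and 42454.5 in Id2 KO Zbtb46-GFP+ cells, against 27331.3 and 26237.3 in Id2 KO CDPs, and 22131.1 and 25516.3 in WT Zbtb46-GFP+ cells, against 28425.1 and 23874.1 in WT CDPs. Whether pDC-lineage cells within the gate carry these signals was not tested.

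Genes outside the pDC list also had a higher step in Id2 KO than in WT. Cdh1, E-cadherin, read 9.62 and 9.17 in Id2 KO Zbtb46-GFP+ cells, against 6.95 and 6.58 in Id2 KO CDPs, and 6.68 and 6.89 in WT Zbtb46-GFP+ cells, against 6.36 and 6.46 in WT CDPs. It rose by 2.63 ± 0.19 (adjusted p = 2.3e-05) in Id2 KO, and the difference from the WT step was 2.25 ± 0.26 (adjusted p = 0.00538), which kept its call with every array left out but not in the fit with the term for the left-out scale (1). Jchain, the joining chain of secreted antibodies, read 6.56 and 6.23 in Id2 KO Zbtb46-GFP+ cells, against 4.61 and 4.51 in Id2 KO CDPs, and 4.65 and 4.62 in WT Zbtb46-GFP+ cells, against 4.70 and 5.73 in WT CDPs, a difference of 2.42 ± 0.38 (adjusted p = 0.0226). P2ry13, a receptor for ADP, rose by 1.71 ± 0.25 (adjusted p = 0.00206), with a difference of 2.22 ± 0.36 (adjusted p = 0.0277). Nfil3, a basic leucine zipper repressor, read 10.45 and 10.14 in Id2 KO Zbtb46-GFP+ cells, against 10.11 and 9.59 in Id2 KO CDPs, and 7.49 and 7.57 in WT Zbtb46-GFP+ cells, against 10.01 and 9.36 in WT CDPs. Its step was 0.44 ± 0.27 (adjusted p = 0.525) in Id2 KO and -2.16 ± 0.27 (adjusted p = 0.000456) in WT, a difference of 2.60 ± 0.38 (adjusted p = 0.0197). Its Id2 KO step was called higher with the replicate number (adjusted p = 0.03) or the array set (0.0463) as a block. The Id2 KO Zbtb46-GFP+ arrays lay above every CDP array of both genotypes, and the WT Zbtb46-GFP+ arrays lay far below them. Gria3, Capg and Serpinb1a, which code for a glutamate receptor subunit, an actin-capping protein and an inhibitor of granule proteases, likewise fell in WT and were not called in Id2 KO, with differences of 2.21, 2.04 and 1.82. The differences of Ly6d, Nfil3, Jchain, P2ry13, Gria3, Capg and Serpinb1a were each lost without Id2 KO Zbtb46-GFP+ replicate 2 or replicate 3. WT CDP replicate 1 was needed for all of these but Jchain, WT CDP replicate 2 for P2ry13, Gria3 and Serpinb1a, Id2 KO CDP replicate 1 for Jchain, P2ry13, Gria3 and Serpinb1a, and Id2 KO CDP replicate 2 for Ly6d, Nfil3, Jchain, P2ry13 and Serpinb1a. WT Zbtb46-GFP+ replicate 2 was needed for Jchain and Serpinb1a, and replicate 3 for Jchain, P2ry13 and Serpinb1a. With 1 array left out the adjusted p reached at most 0.0984 for Ly6d, 0.0984 for Nfil3 and 0.126 for Jchain. In the fit with the term it was 0.269 for Nfil3, 0.405 for Jchain, 0.0928 for P2ry13, 0.054 for Gria3 and 0.589 for Capg, and Serpinb1a kept its call.

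Since Id2 acts on E proteins, the promoters of the 64 genes were searched on both strands for the E-box letters CAGCTG as well as CACCTG, whose reverse complement reads CAGGTG. Of the 23 genes higher in the difference, 14 had a promoter among the RefSeq sequences and 9 of them held at least 1 match (64.3%), and of the 41 lower, 36 had a promoter and 12 held a match (33.3%). All measured genes gave 4956 of 15614 (31.7%) and all promoters 8810 of 27025 (32.6%). With 14 promoters the first share is loosely set, and no test was made. Windows around 1 match, in capitals, are shown for Jchain (chr5:88527848-88527952, minus strand) and Nfil3 (chr13:52981197-52981289, minus strand), whose steps differed, and for Siglech (chr7:55768104-55768229, plus strand), a pDC gene that rose in Id2 KO.
Jchain: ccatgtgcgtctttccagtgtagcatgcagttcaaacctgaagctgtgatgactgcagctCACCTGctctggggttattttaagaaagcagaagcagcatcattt
Nfil3: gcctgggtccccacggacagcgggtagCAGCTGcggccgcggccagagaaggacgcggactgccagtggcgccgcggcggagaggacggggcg
Siglech: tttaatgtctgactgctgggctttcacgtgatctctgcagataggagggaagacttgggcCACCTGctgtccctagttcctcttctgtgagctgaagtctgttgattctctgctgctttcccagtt
The match begins 5 bases after the start in Jchain, 223 bases before it in Nfil3 and 20 bases before it in Siglech. Whether any of these letters is bound in these cells was not measured here.

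Of the 7 Id and E protein genes, Id2 and Tcf4 rose in Id2 KO. Tcf4 read 11.66 and 11.57 in Id2 KO Zbtb46-GFP+ cells, against 10.58 and 10.68 in Id2 KO CDPs, and 9.67 and 10.49 in WT Zbtb46-GFP+ cells, against 10.89 and 10.48 in WT CDPs. It rose by 0.98 ± 0.26 (adjusted p = 0.0461) in Id2 KO, its WT step was -0.61 ± 0.26 (adjusted p = 0.189), and the difference was 1.59 ± 0.37 (adjusted p = 0.149), short of a call. It was called with the array set as a block (0.00729) or without WT Zbtb46-GFP+ replicate 3 (0.0382). The Tcf4 call of the Id2 KO step was lost with any single Id2 KO array left out. Tcf3, which codes for E12 and E47, had a step of -0.21 ± 0.17 (adjusted p = 0.72) in Id2 KO and fell by 0.84 ± 0.17 (adjusted p = 0.00747) in WT, and Tcf12 had 0.44 in Id2 KO and -0.40 in WT. Neither step of Tcf12 was called, nor was their difference. After quantile normalization, or with the array set as a block, its Id2 KO step and the difference were both called. Id1, Id3 and Id4, the relatives of Id2, had Id2 KO steps of -0.19, 0.38 and 0.013, none called.

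Of 33 transcription factors of dendritic cells, 14 rose and 1 fell in Id2 KO, and 13 rose and 4 fell in WT. Irf5 and Irf7, which act below Toll-like receptors, rose by 1.20 and 2.37. Bcl6, a repressor needed by cDCs, rose by 1.66, Zeb1 by 1.36, and Klf4, a zinc finger factor of cDC2s, by 1.34. Relb and Rel, of the NF-kappaB family, rose by 1.12 and 0.54, Mycl by 1.04, Irf2 by 0.57 and Stat5a by 0.54. Bcl11a, a factor of pDC and lymphoid cells, read 11.57 and 11.39 in Id2 KO Zbtb46-GFP+ cells, against 10.54 and 10.35 in Id2 KO CDPs, a step of 1.03 ± 0.26 (adjusted p = 0.04), against -0.13 ± 0.26 (adjusted p = 0.823) in WT. Myc fell by 1.12 ± 0.19 (adjusted p = 0.00481) in Id2 KO, and its WT step was -0.34 ± 0.19 (adjusted p = 0.341). Zeb2 and Runx1, which fell in WT by 1.64 and 1.15, had Id2 KO steps of -0.31 ± 0.29 (adjusted p = 0.783) and 0.26 ± 0.22 (adjusted p = 0.734). Of the named factors, Spi1, Ikzf1, Stat3, Klf2, Runx3, Etv6, Gfi1, Irf1, Batf, Batf2 and the 3 C/EBP genes were not called in Id2 KO, with steps between -0.53 (Runx3) and 0.63 (Spi1). The Id2 KO step of Stat3 was called after centring on the 75th percentile or quantile normalization. With the array set as a block those of Stat3 and Runx3 were called. Only with the array set as a block did the differences from WT of Bcl11a (adjusted p = 0.0109), Myc (0.0441) and Runx1 (0.0287) reach a call, and that of Zeb2 did so without WT Zbtb46-GFP+ replicate 3 (0.0454). The count of 14 rests on the arrays: leaving out CDP replicate 1 or 2 of Id2 KO gave 8 or 9, and leaving out Zbtb46-GFP+ replicate 2 or 3 of Id2 KO gave 4 or 9. Irf4, Irf5 and Irf7 kept their calls throughout.

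**Figure D5:**
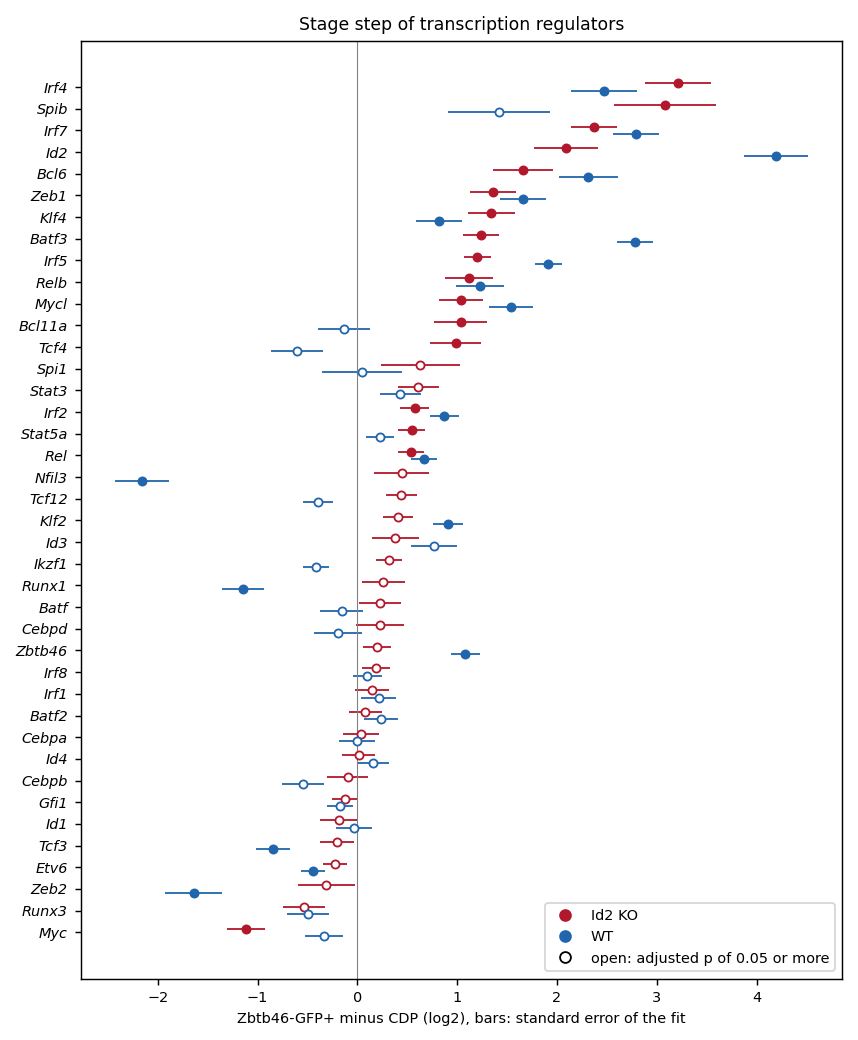
Steps (Zbtb46-GFP+ minus CDP, log2) of Id and E proteins and dendritic cell regulators, Id2 KO above WT for each gene, with the standard error of the fit as bars. Filled points passed the adjusted p of 0.05 and open points did not. Irf4 and Irf7 rose in both genotypes, whereas Nfil3, Zeb2 and Runx1 fell in WT and have open points in Id2 KO.

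Of 12 growth factor receptors, Kit rose and Csf1r, the receptor of macrophage colony-stimulating factor, fell in Id2 KO. Over all genes 3.84% rose and 2.98% fell. Csf1r read 10.19 and 10.33 in Id2 KO Zbtb46-GFP+ cells, against 11.08 and 11.15 in Id2 KO CDPs, and 8.83 and 9.40 in WT Zbtb46-GFP+ cells, against 11.15 and 11.13 in WT CDPs. Its steps were -0.85 ± 0.22 (adjusted p = 0.0436) in Id2 KO and -2.03 ± 0.22 (adjusted p = 0.000169) in WT, the difference of 1.17 ± 0.31 (adjusted p = 0.268) passed only with the array set as a block (0.0438), and the Id2 KO call was lost with any single Id2 KO array left out. Flt3, whose ligand drives dendritic cell growth, had steps of 0.32 in Id2 KO and 0.11 in WT. Csf2ra, the receptor chain for GM-CSF, had 0.57 in Id2 KO, not called, and rose by 1.22 in WT. Il7r, Il3ra, Csf2rb, Csf2rb2, Csf3r, Il6ra, Tgfbr1 and Tgfbr2 were not called in Id2 KO, with steps from -0.63 (Csf3r) to 0.87 (Csf2rb2). With the array set as a block, 5 of the 12 rose and 2 fell in Id2 KO, among them Csf2ra (0.0188) and Csf2rb2 (0.00583). Csf2ra, Csf2rb2 and Tgfbr2 were also called in the 15-array fit with the term for the left-out scale and after quantile normalization. Csf2rb2 was called after centring on the 75th percentile, and Tgfbr2 with dim genes left out. Csf3r was called with dim genes left out, with the mean of all probe sets of a gene, or without genes on X and Y. In WT, Kit, Csf2ra and Tgfbr2 rose and Csf1r and Csf3r fell.

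Some genes of microbial sensing rose in both genotypes. Of 16 Toll-like receptors and adaptors, 6 rose in Id2 KO (2 without Id2 KO Zbtb46-GFP+ replicate 2) and 11 in WT (7 without WT CDP replicate 2 or WT Zbtb46-GFP+ replicate 3), and the difference was called for Tlr3 alone. The Id2 KO calls of Tlr13 and Tlr9 were lost without either Id2 KO Zbtb46-GFP+ array, that of Tlr13 also without CDP replicate 2 and that of Tlr9 without CDP replicate 1. Tlr13, a receptor for bacterial ribosomal RNA, rose by 1.93 ± 0.50 (adjusted p = 0.0425) in Id2 KO and 3.79 ± 0.50 (adjusted p = 0.00061) in WT, with a difference called only with the array set as a block (0.00856). Tlr9, a receptor for CpG DNA, rose by 1.24 in Id2 KO and 1.30 in WT, and Cd180, a relative of Tlr4, by 1.51 and 1.60 in the same order. Of 19 interferon-stimulated genes, 7 rose and 1 fell in Id2 KO, and 13 rose and 1 fell in WT. Rtp4, Ifit3 and Oasl2 rose by 2.14, 1.91 and 1.65 in Id2 KO, and Gbp3, a guanylate-binding protein, fell by 1.72 in Id2 KO and 2.31 in WT. The count of 7 was 3 without either Id2 KO CDP array and 1 without Id2 KO Zbtb46-GFP+ replicate 2, where Rtp4 and Oasl2 were among those lost, and the WT count of 13 was 7 without either WT CDP array and 4 without WT Zbtb46-GFP+ replicate 3. With the array set as a block 13 rose in Id2 KO and 15 in WT.

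Genes of contact with other cells were also kept in part. Of 13 costimulatory and checkpoint genes, 4 rose in Id2 KO and 6 in WT. Cd86, a ligand of CD28, read 7.998 and 7.63 in Id2 KO Zbtb46-GFP+ cells, against 6.79 and 6.09 in Id2 KO CDPs, and 9.67 and 10.07 in WT Zbtb46-GFP+ cells, against 6.53 and 5.88 in WT CDPs. It rose by 1.37 ± 0.30 (adjusted p = 0.0175) in Id2 KO and 3.67 ± 0.30 (adjusted p = 2.23e-05) in WT, and the difference of -2.30 ± 0.42 (adjusted p = 0.0527) did not pass. It was called with the replicate number (adjusted p = 0.0126) or array set (0.000113) as a block, after centring on the 75th percentile (0.00946) or quantile normalization (0.0254), and in 3 other fits. Btla, Icosl and Cd40 rose by 2.30, 1.25 and 0.78, and 2 of the 4 calls remained without Id2 KO Zbtb46-GFP+ replicate 2. Those of Cd86 and Cd40 were lost there, that of Cd86 also without CDP replicate 2 or Zbtb46-GFP+ replicate 3 and that of Cd40 without CDP replicate 1. Of 17 integrins, 6 rose and 2 fell in Id2 KO and 9 rose and 1 fell in WT. Itgax, CD11c, rose by 2.26 ± 0.31 (adjusted p = 0.00147) in Id2 KO and 1.74 ± 0.31 (adjusted p = 0.0041) in WT. Itgb2, the shared chain of the leukocyte integrins, rose by 2.25 in Id2 KO, and Itgb7, the chain of gut-homing integrins, by 1.20. Of 15 chemokine receptors, Ccr9, Ccr1, Cxcr3 and Ccr2 rose in Id2 KO, by 2.98, 2.55, 1.62 and 0.68. Cxcr3 rose by 3.43 in WT and its difference of -1.80 ± 0.28 (adjusted p = 0.0224) was called, as was that of Xcr1. It was lost without WT CDP replicate 1 or 2, WT Zbtb46-GFP+ replicate 3, either Id2 KO CDP array or Id2 KO Zbtb46-GFP+ replicate 3. Of 13 genes of MHC class I peptide loading, 1 rose in Id2 KO (Tapbp, 0.80 ± 0.18 (adjusted p = 0.0244), lost with any single Id2 KO array left out) and 3 in WT. Over all genes 3.84% rose in Id2 KO and 4.71% in WT. Of 21 lysosomal hydrolases, 6 rose, led by Plbd1, and 1 fell in Id2 KO, and 7 rose and 5 fell in WT. The differences of 2 members, Naaa and Ppt1, were called lower in Id2 KO. The Id2 KO count of 6 was 3 without Id2 KO CDP replicate 2 or either Id2 KO Zbtb46-GFP+ array. Ctss and Ctsh, cathepsins of antigen processing, rose by 0.99 and 1.04.

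Ctsg, Mpo and Prtn3, genes of the azurophil granules of neutrophil and monocyte progenitors, fell in Id2 KO, whereas 6 other granule-list genes, among them Camp, Ngp, S100a8 and S100a9, rose. Ctsg, cathepsin G, read 8.45 and 8.50 in Id2 KO Zbtb46-GFP+ cells, against 12.03 and 11.75 in Id2 KO CDPs, and 7.55 and 6.67 in WT Zbtb46-GFP+ cells, against 11.72 and 11.92 in WT CDPs. Its steps were -3.41 ± 0.24 (adjusted p = 2.3e-05) in Id2 KO and -4.71 ± 0.24 (adjusted p = 9.18e-07) in WT. Mpo, myeloperoxidase, had -2.52 ± 0.58 (adjusted p = 0.0244) and Prtn3, proteinase 3, -2.31 ± 0.22 (adjusted p = 0.000167) in Id2 KO. Camp, the cathelicidin of secondary granules, read 13.12 and 13.21 in Id2 KO Zbtb46-GFP+ cells, against 11.80 and 9.86 in Id2 KO CDPs, a step of 2.33 ± 0.51 (adjusted p = 0.0189), and Chil3, a chitinase-like protein, had 2.31 ± 0.52 (adjusted p = 0.0214). In Id2 KO 6 of 17 granule genes rose and 3 fell, in WT 1 rose and 5 fell, and in Batf3 KO 7 rose and 3 fell. The list medians were 0.94 in Id2 KO, 0.51 in WT and 0.83 in Batf3 KO. No granule gene had a called difference between the Id2 KO and WT steps as reported. That of Prtn3 was called with the replicate number or the array set as a block. It was also called with dim genes left out and in a fit with trend and robust empirical Bayes. The difference of Ctsg was called with the array set as a block. With the array set as a block 9 rose and 3 fell in Id2 KO, and 8 rose and 6 fell in WT. The count of 6 was 1 without Id2 KO CDP replicate 2 or without either Id2 KO Zbtb46-GFP+ array, and Mpo lost its call with any single Id2 KO array left out (adjusted p = 0.151 at most). Camp and Chil3 lost theirs without CDP replicate 2 or either Zbtb46-GFP+ array. Id2 KO CDP replicate 1 was high in these genes: Camp read 11.80 on it, against 9.86 on replicate 2. The summed signal of the granule list was 52332.3 and 54416.3 in Id2 KO Zbtb46-GFP+ cells, against 43957.4 and 29127.9 in Id2 KO CDPs, and 21463.1 and 22961.0 in WT Zbtb46-GFP+ cells, against 31184.8 and 27094.2 in WT CDPs. The share of neutrophil-lineage RNA in these values was not tested.

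Markers of other cells were called in some lists and not in others. Over all genes, 3.84% were called higher and 2.98% lower in the Id2 KO step. A lone call in a list of 10 to 20 genes therefore says little about the list. None of 9 basophil and mast cell genes was called in either step (in WT, 1 rose and 1 fell with the array set as a block), with summed signals of 2987.1 and 2341.5 in Id2 KO Zbtb46-GFP+ cells, against 3824.6 and 1551.6 in Id2 KO CDPs. In WT the sums were 624.1 and 1230.2 in Zbtb46-GFP+ cells, against 870.3 and 1301.6 in CDPs, so the Id2 KO arrays were the higher in both stages. Of 15 monocyte and macrophage genes, 5 rose and 2 fell in Id2 KO, among them Fcgr4, an Fc receptor, and Cd68, a lysosomal glycoprotein, which rose by 1.86 and 0.96, and F13a1, the coagulation factor XIII A chain, which fell by 2.502. Without Id2 KO CDP replicate 2 or Id2 KO Zbtb46-GFP+ replicate 2, 1 of the 5 remained, and 3 without either other Id2 KO array. F13a1 fell less than in WT (-4.13 ± 0.17), a difference of 1.63 ± 0.25 (adjusted p = 0.0222) that was lost without WT CDP replicate 1 or 2, WT Zbtb46-GFP+ replicate 2, Id2 KO CDP replicate 1 or either Id2 KO Zbtb46-GFP+ array. Of 20 lymphoid progenitor and B-lineage genes, Fcrla, an Fc receptor-like protein, rose by 2.77 ± 0.17 (adjusted p = 9.56e-06) and Dntt, the terminal transferase of V(D)J joining, fell by 1.85 ± 0.34 (adjusted p = 0.00789). Of 16 T, NK and innate lymphoid markers, Cd8b1, Klrk1, Thy1 and Tbx21 rose in Id2 KO, by 1.69, 1.34, 1.07 and 0.99. Of 10 erythroid and megakaryocyte markers, Car1 alone was called (0.81 ± 0.20 (adjusted p = 0.0343)). The calls of Dntt, Klrk1 and Car1 were lost without Id2 KO Zbtb46-GFP+ replicate 2, those of Dntt and Car1 also without replicate 3 and that of Car1 without CDP replicate 1.

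Some genes of DNA replication and cell division fell. Over all genes, 2.98% fell and 3.84% rose in Id2 KO, and 6.38% fell and 4.71% rose in WT. Of 28 replication and division genes, 5 fell and 1 rose in Id2 KO and 11 fell and 1 rose in WT (list medians -0.07 in Id2 KO and -0.45 in WT), and none had a called difference, against 2 higher in Id2 KO with the array set as a block, where 10 fell in Id2 KO. Mcm3 and Mcm6, subunits of the replicative helicase, fell by 0.78 and 0.72 in Id2 KO and 1.12 and 1.13 in WT, and Cdt1, which loads that helicase, fell by 0.87 and 1.20 in the same order. Ccnd1, cyclin D1, rose by 1.03 ± 0.27 (adjusted p = 0.0428) in Id2 KO. The count of 5 was 3 without Id2 KO CDP replicate 1 or Zbtb46-GFP+ replicate 3 and 1 without Zbtb46-GFP+ replicate 2, where Cdt1 and Mcm6 lost their calls. That of Ccnd1 was lost without CDP replicate 2 or either Zbtb46-GFP+ array. Of 19 immediate early and stress genes, 6 rose and 1 fell in Id2 KO and 8 rose and 1 fell in WT. Ier5, Btg2, Klf6 and Junb rose by 1.36, 1.30, 1.10 and 0.99 in Id2 KO, and the count of 6 was 2 without Id2 KO CDP replicate 2 and 1 without Zbtb46-GFP+ replicate 2, with Ier5 lost in both.

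Set against the Batf3 KO step, the Id2 KO step differed in 9 genes (0.0451%), 3 higher and 6 lower in Id2 KO, and no call among them was kept with each array left out. Both knockouts lack much of the cDC1 rise, so the cDC1 genes give the closest comparison: 9 of 25 were called higher in each knockout, with list medians of 0.60 in Id2 KO and 0.45 in Batf3 KO. Xcr1 had steps of 0.51 ± 0.30 (adjusted p = 0.49) in Id2 KO and 0.49 ± 0.30 (adjusted p = 0.481) in Batf3 KO, and the difference was 0.016 ± 0.42 (adjusted p = 1). Tlr3 rose less in Id2 KO than in Batf3 KO, by 2.21 ± 0.14 against 3.79 ± 0.14, a difference of -1.58 ± 0.19 (adjusted p = 0.0213). Itga1, with -0.98 in Id2 KO and 0.84 in Batf3 KO, Ptgdr2, a prostaglandin D2 receptor, with 0.15 and 1.97, and Tbxas1, with 0.34 and 1.91, were also lower in Id2 KO. Tnfsf8, the ligand of CD30, had 0.15 and 1.76 in the same order. Cdh1 and Fcrla were higher in Id2 KO, with steps of 2.63 and 2.77, against 0.35 and 0.66 in Batf3 KO. Grifin, a lens galectin-related gene, had 1.76 in Id2 KO and 0.27 in Batf3 KO. Of the pDC genes, 4 rose and 1 fell in Batf3 KO (list median -0.17), against 14 and 0 in Id2 KO. Ly6d had a Batf3 KO step of -0.96 ± 0.40 (adjusted p = 0.218) and a difference between the knockouts of 3.67 ± 0.56 (adjusted p = 0.0697), and Nfil3 fell by 1.95 ± 0.27 (adjusted p = 0.00138) in Batf3 KO with a difference of 2.39 ± 0.38 (adjusted p = 0.0801), so neither difference passed. With the replicate number as a block both were called (adjusted p = 0.0208 and 0.0208), as they were with the array set (4.45e-05 and 0.0006), which called 132 genes in place of 9.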

How the data were processed

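Expression was measured on 15 Affymetrix arrays of sorted mouse bone marrow cells. The authors deposited linear intensity per probe set, normalized with RMA in Affymetrix Expression Console, per the submitters' processing notes, which give no versions. Sorting used a FACSAria Fusion, per the labels' protocols, after which RNA was column-purified and biotinylated cDNA was made with a WT Pico kit. log2 was taken here. Of 28853 probe sets, 23410 were annotated, 21789 with 1 symbol and 1621 with several; 5443 were not named. Of the single-symbol sets, 21698 matched a RefSeq gene, and 19938 genes entered, each by its probe set with the highest mean.

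Comparisons used limma 3.58.1 in R 4.3.3 on 12 arrays: 6 group means, 6 residual degrees of freedom, empirical Bayes without trend, two-sided, Benjamini-Hochberg over all genes, adjusted p under 0.05. The tests were the 3 stage steps and the differences of the Id2 KO step from the others. The steps share no arrays but share each gene's estimate of spread. The fit was checked on simulated data.

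Members, the 23 gene lists (436 entries, 30 not measured) and tests were chosen with earlier results of these data known. Named genes are the regulators and receptors, the 15 largest called changes each way in the Id2 KO step with groups apart, the 12 and 5 largest each way in the differences from WT and Batf3 KO, and up to 4 called members per list. Outside this rule, chosen after their values were seen, are Cd226, Clec10a, Clec12a, Clec9a, Gatm, Gapt, Mid1, H2-DMa, H2-Eb2, H2-Oa, H2-Ob, Myb, Ngp, Ppt1, Ptpn22, S100a8, S100a9, Siglech, Xist, Kdm5d, Ncl, Srm, Nolc1, Naf1 and Odc1. Alternatives were arrays and blocks in the fit, scaling, dim genes, probe set choice, sex chromosomes and each array left out. The counts of shared calls, list counts and shares under these were added after seeing the data.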

Additional observations from a re-analysis of the deposited data

Results flagged for a closer look

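Genes listed here were picked out because the Id2 KO step and the step of another genotype differed in a test of the difference itself (limma, adjusted p under 0.05). Values are the Id2 KO step minus the other step, on the log2 scale. Against WT, the steps lower in Id2 KO were those of Gpr141b -4.85, Tlr3 -3.90, Gcsam -3.51, Snx22 -3.44, Rasgrp3 -3.38, Cd36 -3.18, Naaa -3.18, Xcr1 -3.14, Rab7b -2.96, P3h2 -2.86, Gm6377 -2.81 and Hepacam2 -2.60. The steps higher in Id2 KO than in WT were those of F13a1 1.63, Klrb1f 1.74, Igfbp4 1.80, Serpinb1a 1.82, Capg 2.04, Gria3 2.21, P2ry13 2.22, Cdh1 2.25, Cd93 2.33, Jchain 2.42, Nfil3 2.60 and Ly6d 3.74. Of these 24 genes, Gpr141b, Tlr3, Gcsam, Snx22, Rasgrp3, Cd36, Rab7b, P3h2, Klrb1f, Igfbp4, Cdh1, Cd93 kept the call with every single array left out. In the fit on all 15 arrays with a term for the left-out scale, Snx22, Rasgrp3, P3h2, Klrb1f, Igfbp4 and Cdh1 of these 12 lost it (adjusted p up to 1). Against Batf3 KO, the steps lower in Id2 KO were those of Ptgdr2 -1.82, Itga1 -1.81, Tnfsf8 -1.61, Tlr3 -1.58, Tbxas1 -1.57 and Ptpn22 -1.36, and those higher were Grifin 1.49, Fcrla 2.11 and Cdh1 2.28. None of the 9 genes called against Batf3 KO kept its call with every array left out.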

How the results depend on the processing

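Counts of called genes moved by over 1.5 times under several settings. The fit on all 15 arrays with 6 group means, which is the fit written down first, called 0 genes in the Id2 KO step (123 at an unadjusted p under 0.05), 1 in the WT step, 0 in the Id2 KO minus WT difference (5 unadjusted), 0 in the Id2 KO minus Batf3 KO difference and 0 WT-step genes called the same way in Id2 KO. It mixes the 3 arrays on another scale into their groups. With a term for those 3 arrays it called 1917, 20 in the difference from WT and 1 in that from Batf3 KO. Those 3 arrays share most of their values across genotypes, which can shrink the differences in that fit. The replicate numbers did not pair all arrays: deviations of same-numbered Zbtb46-GFP+ and CDP arrays correlated at -0.53 in Id2 KO and 0.52 in WT, while same-numbered CDP arrays correlated at 0.61 (Id2 KO with WT) and 0.53 (Id2 KO with Batf3 KO). Blocking on the replicate number, a fit of 12 arrays called 1255 genes in the Id2 KO step, 120 in the difference from WT and 17 in that from Batf3 KO. All 15 arrays with that replicate block gave 0 (2256 unadjusted), 25 in the WT step, 0 (19 unadjusted), 0 and 0. A block for 2 sets of arrays, told apart by their 75th percentile with 1 array of each group in each, gave 3234 in the Id2 KO step, 4829 in WT, 373 and 132 in the differences and 2431 of the WT-step genes called the same way, against 992 as reported. Quantile normalization gave 2372 in the Id2 KO step, 175, 36 and 1703. Centring on the 75th percentile left 0 genes in the difference from Batf3 KO, and leaving out dim genes gave 16. Leaving out each array in turn gave 488 to 1111 genes in the Id2 KO step, 1183 to 1778 in WT, 21 to 91 and 0 to 5 in the differences and 409 to 944 called the same way. The lone array of a group was then assumed to vary like the others. The share of WT calls that were higher was 42.5% as reported and 57.3% after centring, which moved the median WT step to 0.1603 from 0.0332; that of the difference was 35.9%, and 47.4% after quantile normalization. Signs turned only in the fits that put the 3 arrays into their groups. On 15 arrays with 6 group means the Id2 KO steps that turned were Ccnd1 -0.46, Ctsh -0.20, Ctss -0.40, Itgb7 -0.094, Kit -0.41, Klf6 -0.25, Mycl -0.0042, Rel -0.43, Relb -0.099, Stat5a -0.47, Tapbp -0.35 and Tlr9 -0.048. With the replicate block on all 15 arrays they were Bcl11a -0.25, Car1 -0.31, Ccnd1 -1.14, Ccr2 -0.22, Cd40 -0.11, Ctsh -0.78, Ctss -1.01, Irf5 -0.58, Irf7 -0.047, Itgb7 -0.70, Junb -0.51, Kit -0.98, Klf4 -0.44, Klf6 -0.86, Mycl -0.58, Naaa -0.50, Oasl2 -0.052, Rel -0.84, Relb -0.69, Stat5a -0.97, Tapbp -0.96, Tbx21 -0.011, Tcf4 -0.52 and Tlr9 -0.76. Every other called step or difference of a named gene kept its sign in the settings run. Of 106 named genes called in the Id2 KO step, 68 stayed called whichever single array was left out, and 100 when all 15 arrays and their scale term were used. With 2 arrays a group, precision is limited by their number.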

Other observations

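Ncl, Srm, Nolc1, Naf1 and Odc1, chosen after their values were seen, each fell in Id2 KO. Ncl, nucleolin, read 10.58 and 10.60 in Id2 KO Zbtb46-GFP+ cells, against 11.39 and 11.30 in Id2 KO CDPs, and had steps of -0.76 ± 0.13 (adjusted p = 0.00434) in Id2 KO and -0.47 ± 0.13 (adjusted p = 0.0355) in WT. Srm, spermidine synthase, read 9.24 and 8.94 in Id2 KO Zbtb46-GFP+ cells, against 10.87 and 9.98 in Id2 KO CDPs, with steps of -1.34 ± 0.25 (adjusted p = 0.00892) in Id2 KO and -1.23 ± 0.25 (adjusted p = 0.00907) in WT. Nolc1, Naf1 and Odc1 had Id2 KO steps of -0.91, -1.11 and -1.10, against -0.95, -0.49 and -0.82 in WT. The differences between the steps were -0.11 ± 0.36 (adjusted p = 1) for Srm, -0.29 ± 0.18 (adjusted p = 1) for Ncl and -0.62 ± 0.25 (adjusted p = 0.894) for Naf1.

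Of the genes called in opposite directions by the Id2 KO and WT steps there were 4. Gatm and Itga1 fell in Id2 KO and rose in WT. The Id2 KO fall of Itga1 was not called in the limma fit on 15 arrays with a term (adjusted p = 0.0806). Gapt, an adaptor of immune receptors, read 10.89 and 10.85 in Id2 KO Zbtb46-GFP+ cells, against 10.27 and 10.06 in Id2 KO CDPs, and 9.35 and 9.57 in WT Zbtb46-GFP+ cells, against 10.49 and 10.10 in WT CDPs. Its difference of 1.55 (adjusted p = 0.0383) was not called in the limma fit with the term (adjusted p = 0.987). Mid1, on the X chromosome, read 8.98 and 8.72 in Id2 KO Zbtb46-GFP+ cells, against 8.11 and 8.22 in Id2 KO CDPs, and 8.59 and 8.72 in WT Zbtb46-GFP+ cells, against 9.50 and 9.07 in WT CDPs, with a difference of 1.31 ± 0.24 (adjusted p = 0.0527).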
